A study of Mus musculus with 36 samples.

Results

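The BCL2 family holds the proteins that decide whether the outer membrane of the mitochondria is opened during apoptosis. Described here are 10 of its genes, chosen by symbol from a written list, of 21761 genes in the count tables: Bcl2, Bcl2l1, Bcl2l2, Mcl1, Bax, Bak1, Bcl2l11, Hrk, Bid and Bad. All 10 passed the filter on low counts, which kept 15207 genes, so none was left out. The libraries were made from motor neurons derived from mouse embryonic stem cells (strain label transgenic Hlxb9-GFP1Tmj) in which the HB9 promoter, active in motor neurons, drives eGFP or eGFP with the surface protein CD2. Cells were sorted on a magnetic column with an antibody to CD2 and then cultured in medium that astrocytes of newborn pups had conditioned. The astrocytes came from spinal cord or cortex, with the origin for each library not given in the sources used here.

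There were 6 groups of 6 libraries: medium of non-transgenic astrocytes (NTg), of astrocytes over-expressing SOD1 with the G93A mutation of familial amyotrophic lateral sclerosis (mSOD1), and of astrocytes over-expressing wild-type SOD1 (wtSOD1), each after 1 day and after 3 days. The transgenes were in the astrocytes that conditioned the medium, not in the neurons. Every medium, NTg included, was brought to 4.5 mg/ml glucose and received the survival factors GDNF (0.5 ng/ml), BDNF (1 ng/ml) and CNTF (10 ng/ml). The groups share the experiment numbers 1 to 6, given below as replicates. A time zero control that the series design names was not analysed here.

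In this family the anti-apoptotic members, also called guardians (Bcl2, Bcl2l1 for BCL-xL, Bcl2l2 for BCL-w, and Mcl1), bind and hold the others in check. The effectors Bax and Bak1 form the pores through which cytochrome c leaves the mitochondria. The BH3-only members sense stress and either neutralise the guardians or activate the effectors: Bcl2l11 (BIM) and Hrk are induced in neurons that lose trophic support, Bid is cut by caspase-8, and Bad is held inactive by phosphorylation downstream of growth factors. In developing motor neurons Bax is known to be required for the death of cells that do not reach a target, and BCL-xL is the guardian that many mature neurons depend on. The measurements here are of mRNA, and protein level, phosphorylation, cleavage and location were not measured.

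The promoters of the members with the largest differences between days are shown first, since these genes moved in opposite directions. All 10 members were found by gene identifier among the RefSeq promoters of GRCm38.p6, with 14 start sites, each as a window of 300 bases from 250 before to 50 after the start. In the sequences below, capitals mark a match to 1 of 6 motifs searched on both strands: the FOXO core GTAAACA, AP-1 TGANTCA, CRE TGACGTCA, a CRE-like TGATGTAA, the E2F core TTTCGCGC and the E-box CACGTG. Positions count the first base of the transcript as 1 and the base before it as -1. Bcl2 lies at chr1:106714241-106714540 (minus strand), Bak1 at chr17:27028578-27028877 (minus), the Bcl2l11 starts at chr2:128125788-128126087 and chr2:128127325-128127624 (plus), and Hrk at chr5:118169514-118169813 (plus).
Bcl2: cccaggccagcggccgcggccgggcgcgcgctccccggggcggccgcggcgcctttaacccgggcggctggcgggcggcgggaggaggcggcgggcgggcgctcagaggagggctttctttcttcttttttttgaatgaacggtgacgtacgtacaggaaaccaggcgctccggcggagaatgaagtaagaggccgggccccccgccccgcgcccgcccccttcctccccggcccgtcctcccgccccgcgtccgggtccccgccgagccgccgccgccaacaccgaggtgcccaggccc
Bak1: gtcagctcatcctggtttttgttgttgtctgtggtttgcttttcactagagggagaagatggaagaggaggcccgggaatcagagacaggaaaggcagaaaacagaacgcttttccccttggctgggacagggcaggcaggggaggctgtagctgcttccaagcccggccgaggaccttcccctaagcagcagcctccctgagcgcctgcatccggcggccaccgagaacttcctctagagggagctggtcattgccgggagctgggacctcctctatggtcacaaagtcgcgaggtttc
Bcl2l11 start 1: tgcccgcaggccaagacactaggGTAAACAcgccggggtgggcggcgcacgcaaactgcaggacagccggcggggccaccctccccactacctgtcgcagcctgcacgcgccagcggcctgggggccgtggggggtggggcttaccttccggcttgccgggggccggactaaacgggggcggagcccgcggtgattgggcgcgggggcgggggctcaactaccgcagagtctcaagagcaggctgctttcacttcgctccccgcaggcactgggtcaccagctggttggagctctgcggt
Bcl2l11 start 2: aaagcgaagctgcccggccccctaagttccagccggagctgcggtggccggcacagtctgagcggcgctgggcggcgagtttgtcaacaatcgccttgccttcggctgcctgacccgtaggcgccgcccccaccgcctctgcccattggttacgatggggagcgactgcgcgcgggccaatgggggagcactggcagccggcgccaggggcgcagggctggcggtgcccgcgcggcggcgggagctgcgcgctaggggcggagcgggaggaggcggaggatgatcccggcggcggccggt
Hrk: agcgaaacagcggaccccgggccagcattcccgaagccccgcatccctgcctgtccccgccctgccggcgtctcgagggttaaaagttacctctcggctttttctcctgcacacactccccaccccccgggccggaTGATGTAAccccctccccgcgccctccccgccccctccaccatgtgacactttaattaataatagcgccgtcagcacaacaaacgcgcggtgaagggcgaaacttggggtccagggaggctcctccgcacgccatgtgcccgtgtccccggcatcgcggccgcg

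Hrk held the CRE-like TGATGTAA at -114, a match found in 1.1% of all 32851 promoters of that length. The first Bcl2l11 start held GTAAACA at -227, found in 3.65% of all promoters. Bcl2 held none of the 6 capitalised motifs but 7 GC boxes (GGGCGG, in 35.7% of promoters), and 76% of its bases were G or C against a median of 52.7%. Bak1 held no match to these motifs, to the GC box, to CCAAT (37.4% of promoters) or to TATAAA (13.6%). Among members not shown, Bax held CACGTG (7.15% of promoters) at 2 places and the second Bcl2l1 start held TTTCGCGC (0.323%) at -145. TGANTCA (7.81%) and TGACGTCA (1.79%) were in no member's window. These are matches of letters only, and binding was not measured.

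Depth was a median of 13.3 M reads assigned to genes per library, from 4.39 M (NTg day 1 replicate 6) and then 8.58 M up to 42.2 M and 88.9 M (wtSOD1 day 1 replicate 4), and the members were counted with 59 to 15004 reads per library. NTg day 1 replicate 6 stood apart: its 7 microglial markers summed to 45.7 counts per M reads (CPM) against 12.7 to 14.5 CPM in the other 5 libraries of its group, C1qa was at 6.6 CPM against 0, and its 7 oligodendrocyte markers summed to 207 CPM against 58.3 to 63.5 CPM. It had the highest Mcl1, Hrk and Bcl2l11 of its group and the lowest Bcl2l1, Bax, Bid and Bad, 7 of the 10 members. Without it, the log2 day difference in NTg medium was 0.19 for Mcl1 (edgeR adjusted p = 7.09e-05), -0.63 for Hrk (1.07e-06) and -0.54 for Bcl2l11 (5.91e-06). It was -0.16 for Bcl2l1 (0.007), 0.41 for Bax (0.000204), -0.18 for Bid (0.0168) and 0.11 for Bad (0.309). None of these calls changed without it, nor did any of these members' calls between NTg and another medium. The deepest library, wtSOD1 day 1 replicate 4, stood apart as well. It had 16829 genes with a read, against 16978 to 17524 in the other libraries of its group. Its Bcl2 (46.6 CPM) was the highest of the group and its Bcl2l1 (103 CPM), Bax (44.5 CPM) and Bak1 (23.5 CPM) the lowest. Nothing in the labels says whether the experiments used separate differentiations, so p-values measure the spread between these libraries.

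Per kilobase of exons, used here to compare genes of unlike length, Mcl1 was the most abundant member and Hrk the least in all 6 groups. Group means of Mcl1 ran from 54 to 61.9 CPM per kilobase, of Bax from 36.9 to 50.6 and of Bcl2l1 from 22.5 to 25.4, and the library ranges of Mcl1 and Bax, and of Bax and Bcl2l1, did not overlap in any group. Bak1 and Bcl2l2 came next, at 11 and 11 CPM per kilobase in NTg medium on day 1 with overlapping libraries. By day 3 Bak1 (18.8) had moved clear of Bcl2l2 (9.14). Bid and Bad followed at 7.66 and 6.75 CPM per kilobase in NTg medium on day 1, and their libraries overlapped. Bcl2l11 (4.49), Bcl2 (4.16) and Hrk (3.33) closed the order on that day, each overlapping its neighbour.

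Bcl2 left this low end by day 3. It reached 7.23 ± 0.47 CPM per kilobase (mean ± SD, n = 6) in NTg medium, beside Bad (7.56 ± 0.64) and Bid (6.87 ± 0.25), whose libraries overlapped those of Bcl2. Bcl2l11 fell to 2.93 ± 0.22 and Hrk to 2 ± 0.33 CPM per kilobase, below every other member. The order of some members rests on the length used. With the longest transcript in place of all exons, Bax stood above Mcl1 in 4 of 6 groups (mSOD1 medium on day 1 and all 3 media on day 3). On that scale Bak1 (11.1) stood just below Bid (11.3) and Bad (11.3) in NTg medium on day 1. On day 3 Bcl2 stood below Bid and Bad in all 3 media (9.21, 10.1 and 12.6 in NTg medium).

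**Figure D1:**
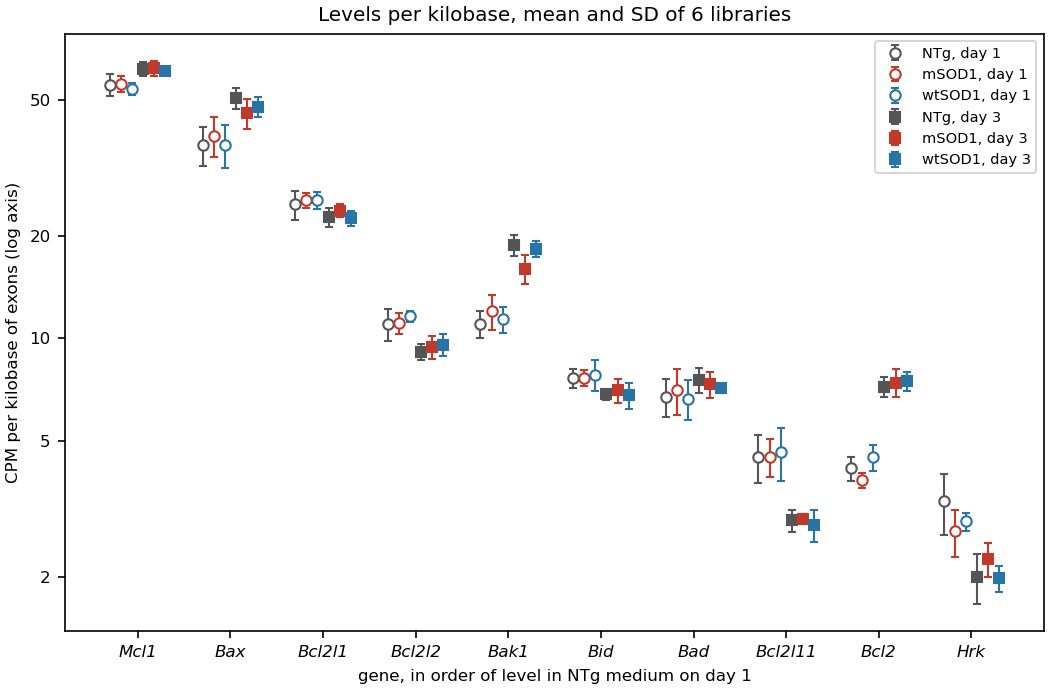
Level of each member in CPM per kilobase of exons (log axis), mean and SD of 6 libraries for each medium on day 1 (open circles) and day 3 (filled squares). Mcl1 is highest and Hrk lowest in every group, and Bcl2 moves from 4.16 to 7.23 in NTg medium between days.

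Summed by role, the 4 guardians gave 95.3 ± 3.8 CPM per kilobase in NTg medium on day 1 and 101 ± 3.2 on day 3 (mean ± SD, n = 6). The 2 effectors gave 47.9 ± 5.6 on day 1 and 69.4 ± 3.9 on day 3. The 4 BH3-only members gave 22.2 ± 1.2 and 19.4 ± 0.62. In mSOD1 medium the sums on day 1 and day 3 were 95.9 and 102 for guardians, 51.3 and 61.7 for effectors and 21.9 and 19.6 for BH3-only members. In wtSOD1 medium they were 95.4 and 101, 48.3 and 66.1, and 22 and 18.8. These sums are descriptions of mRNA, without a test, and they weigh the most abundant member of each role most.

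How did the family differ between day 1 and day 3? In NTg medium 4 members rose and 5 fell, in mSOD1 medium 4 rose and 3 fell, and in wtSOD1 medium 4 rose and 5 fell (edgeR, adjusted p under 0.05). The 4 that rose were the same in the 3 media: Bcl2, Mcl1, Bax and Bak1. Such calls were common, since 61.6%, 56.5% and 61.8% of all genes tested were called in NTg, mSOD1 and wtSOD1 medium. By direction, 30.8%, 28.4% and 31.1% of genes rose, and 30.8%, 28% and 30.7% fell. The share of members called is thus read against a background in which most genes moved, and the sizes and directions of single members are what follows. The members' median log2 difference was 0.01, -0.02 and -0.03 in the 3 media, against -0.0003, -0.008 and -0.0057 for all genes tested. The labels do not say whether libraries of the 2 days were prepared together.

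Bcl2 (gene 12043), the founding guardian, had the largest estimated rise of the 10 in each medium. In NTg and wtSOD1 medium Bak1 came within the SE of it (0.77 ± 0.07 and 0.69 ± 0.07). In NTg medium the libraries of Bcl2 ran from 32.8 through a median of 39.8 to 40 CPM on day 1. On day 3 they ran from 59.1 through 66.9 to 71.1 CPM. In mSOD1 medium they ran from 33.2 (median 34.9) to 37.1 and then from 62.5 (66.4) to 80.3 CPM, and in wtSOD1 medium from 36 (41) to 46.6 and then from 62.4 (69.9) to 73.4 CPM. Every day 3 library stood above every day 1 library, whichever the medium. The log2 difference was 0.80 ± 0.06 in NTg medium (estimate ± SE, 6 libraries a day, edgeR adjusted p = 8.58e-14), 0.95 ± 0.06 in mSOD1 (1.27e-15) and 0.73 ± 0.06 in wtSOD1 medium (4.28e-13), in 6 of 6 same-numbered pairs each. Folds were 1.74, 1.93 and 1.66.

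Mcl1 (17210), a guardian of short protein life that cells must keep making, rose by much less. Its NTg libraries ran from 179 (median 186) to 218 CPM on day 1 and from 199 (211) to 222 CPM on day 3. The groups overlapped through replicate 6 of day 1, which held the 218 CPM. The log2 difference was 0.15 ± 0.04 in NTg (adjusted p = 0.00221), 0.15 ± 0.04 in mSOD1 (0.00285) and 0.18 ± 0.04 in wtSOD1 medium (0.00048), with 6 of 6 pairs higher in each. Without NTg day 1 replicate 6 the NTg value was 0.19 (adjusted p = 7.09e-05).

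Bcl2l2 (12050) fell in all 3 media. Its NTg libraries held 42.1 to 57.4 CPM (median 48.1) on day 1 and 38 to 44.2 (40.6) on day 3. These ranges overlapped, while in wtSOD1 medium 48.9 to 54.3 CPM (51.3) and 39 to 47.6 (43.5) did not. Log2 differences were -0.27 ± 0.06 (adjusted p = 0.000286), -0.23 ± 0.06 (0.00152) and -0.27 ± 0.06 (0.000184) in NTg, mSOD1 and wtSOD1 medium, lower in 6 of 6 pairs each.

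Bcl2l1 (12048), which makes BCL-xL, fell in NTg and wtSOD1 medium only slightly. Its libraries ran from 98.3 (median 113) to 125 CPM and from 93.7 (103) to 113 CPM on day 1 and 3 in NTg medium, with much overlap. The log2 difference was -0.13 ± 0.05 in NTg (adjusted p = 0.0302) and -0.17 ± 0.05 in wtSOD1 medium (0.00468). In mSOD1 medium it was -0.10 ± 0.05 (0.103), with a 95% interval of -0.21 to 0.01. The NTg call ended without replicate 1 (-0.11, 0.115), 2 (-0.12, 0.0605), 3 (-0.10, 0.17) or 5 (-0.12, 0.0725). The same BCL-xL gene also makes a pro-apoptotic splice form, which gene counts do not separate.

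**Figure D2:**
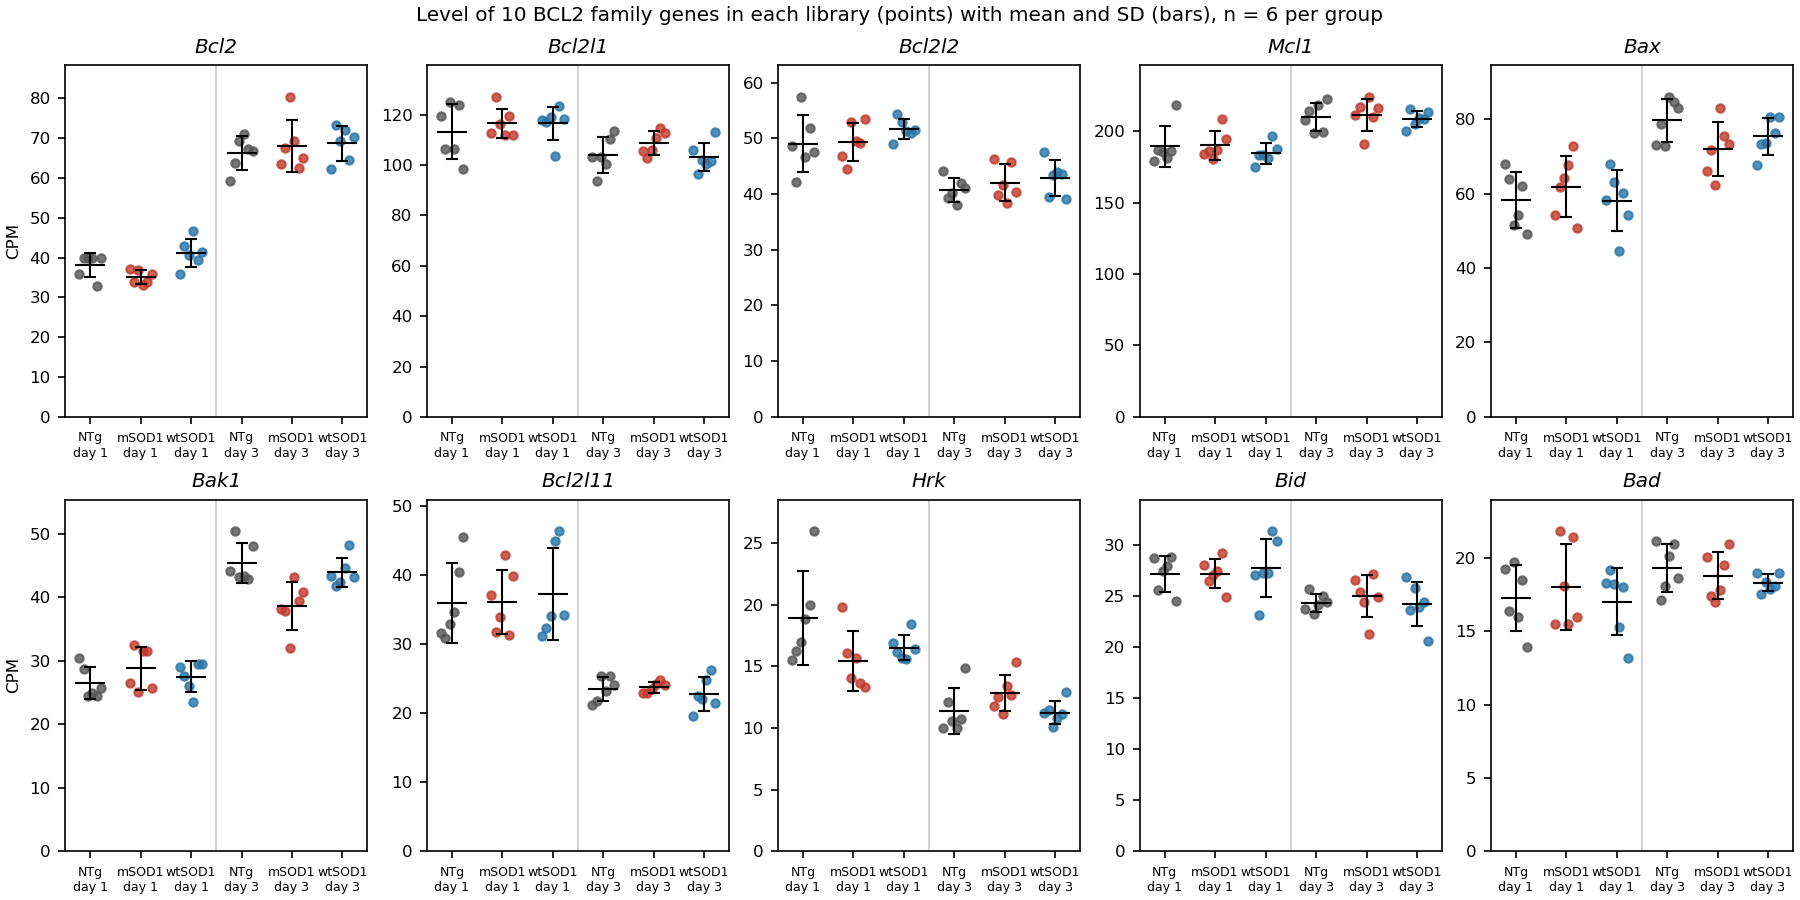
CPM of each member in every library (points; NTg grey, mSOD1 red, wtSOD1 blue), with the mean and SD of 6 libraries as black bars; day 1 is left and day 3 right of the grey line, and each vertical axis starts at 0. For Bcl2 no day 1 library exceeds 46.6 CPM and no day 3 library falls below 59.1 CPM.

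Both effectors rose. Bak1 (12018) ran from 24.4 (median 25.3) to 30.4 CPM on day 1 and from 42.9 (43.8) to 50.4 CPM on day 3 in NTg medium. It ran from 25.1 (29) to 32.5 and from 32.1 (38.8) to 43.2 CPM in mSOD1 medium, and from 23.5 (28.3) to 29.5 and from 41.8 (43.4) to 48.3 CPM in wtSOD1 medium. The days did not overlap in NTg and wtSOD1 medium and overlapped narrowly in mSOD1 medium. The log2 rise was 0.77 ± 0.07 (adjusted p = 1.13e-11), 0.42 ± 0.07 (7.34e-06) and 0.69 ± 0.07 (1.35e-10) in NTg, mSOD1 and wtSOD1 medium, in 6 of 6 pairs each.

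Bax (12028) ran from 49.3 (median 58.2) to 68 CPM on day 1 and from 72.8 (80.8) to 85.9 CPM on day 3 in NTg medium, without overlap. In mSOD1 medium 50.8 to 72.7 CPM (62.9) and 62.4 to 83 CPM (72.5) overlapped widely. The log2 rise was 0.44 ± 0.09 in NTg (adjusted p = 5.06e-05), 0.22 ± 0.09 in mSOD1 (0.0332) and 0.38 ± 0.09 in wtSOD1 medium (0.000253). The mSOD1 call ended without replicate 1 (0.21, 0.0562), 2 (0.22, 0.061) or 6 (0.16, 0.146). Bak1 and Bax thus had the smallest estimate in mSOD1 medium. By distance from 0 the same held for every other member except Bcl2 and Bcl2l11, in part by little (Mcl1 0.153 against 0.155 in NTg medium). The share of all genes with this pattern is not given here, so it is not read as a trait of the family. Over all genes tested, fewer were called between days in mSOD1 medium (56.5%) than in NTg (61.6%) or wtSOD1 medium (61.8%). The tests of the difference for Bak1 and Bax are given below.

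Of the BH3-only members, Bcl2l11 and Hrk fell in every medium. Bcl2l11 (12125) ran from 30.9 (median 33.8) to 45.5 CPM on day 1 and from 21.2 (23.7) to 25.4 CPM on day 3 in NTg medium. The other media gave 31.3 to 42.9 (35.5) and 22.9 to 24.8 CPM (23.9) for mSOD1, and 31.3 to 46.4 (34.2) and 19.6 to 26.3 CPM (22.3) for wtSOD1. No library of day 3 reached the lowest of day 1. The log2 difference was -0.60 ± 0.10 (adjusted p = 1.43e-06), -0.60 ± 0.10 (1.89e-06) and -0.71 ± 0.10 (3.21e-08) in NTg, mSOD1 and wtSOD1 medium, lower in 6 of 6 pairs each. On day 1 its spread between libraries was wide (SD 5.8, 4.7 and 6.7 CPM) and on day 3 narrow (1.8, 0.77 and 2.4 CPM).

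Hrk (12123), a neuronal BH3-only gene, ran from 15.5 (median 17.9) to 25.9 CPM on day 1 and from 9.98 (10.6) to 14.9 CPM on day 3 in NTg medium. In mSOD1 medium it ran from 13.3 (14.9) to 19.8 and from 11.1 (12.6) to 15.3 CPM, and in wtSOD1 medium from 15.6 (16.3) to 18.4 and from 10.1 (11.1) to 12.9 CPM. The days overlapped in mSOD1 medium alone. The log2 difference was -0.70 ± 0.11 in NTg (adjusted p = 3.47e-07), -0.26 ± 0.11 in mSOD1 (0.0341) and -0.55 ± 0.11 in wtSOD1 medium (2.19e-05). Without NTg day 1 replicate 6, which held the 25.9 CPM, the NTg value was -0.63 (1.07e-06). The mSOD1 call ended without replicate 1 (-0.16, 0.231), 2 (-0.24, 0.0974), 3 (-0.25, 0.0888) or 4 (-0.27, 0.0631).

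Bid (12122) and Bad (12015) are controlled mainly after translation. Bid ran from 24.5 (median 27.7) to 28.8 CPM and from 23.2 (24.3) to 25.7 CPM on day 1 and 3 in NTg medium, with overlap. It fell by 0.17 on the log2 scale in NTg (SE 0.07, adjusted p = 0.0281) and by 0.19 in wtSOD1 medium (SE 0.07, 0.00996), and stood at -0.12 ± 0.07 in mSOD1 medium (0.12, interval -0.26 to 0.01). The NTg call ended without replicate 1 (-0.14, 0.115), 3 (-0.15, 0.0977), 4 (-0.16, 0.0633) or 5 (-0.16, 0.0671), and the wtSOD1 call without replicate 6 (-0.12, 0.109). Bad ran from 13.9 (17.4) to 19.7 and from 17.1 (19.4) to 21.2 CPM in NTg medium and was called in no comparison. Its day difference was 0.14 ± 0.09 (interval -0.04 to 0.33) in NTg, 0.05 ± 0.09 (-0.13 to 0.24) in mSOD1 and 0.11 ± 0.09 (-0.08 to 0.29) in wtSOD1 medium.

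Counted by library ranges, 5 members did not overlap between days in NTg medium (Bcl2, Bax, Bak1, Bcl2l11 and Hrk), against 38.4% of all genes. In mSOD1 medium 2 did not (Bcl2 and Bcl2l11), against 32% of genes, and in wtSOD1 medium 6 (Bcl2, Bcl2l2, Mcl1, Bak1, Bcl2l11 and Hrk), against 38.3%.

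**Figure D3:**
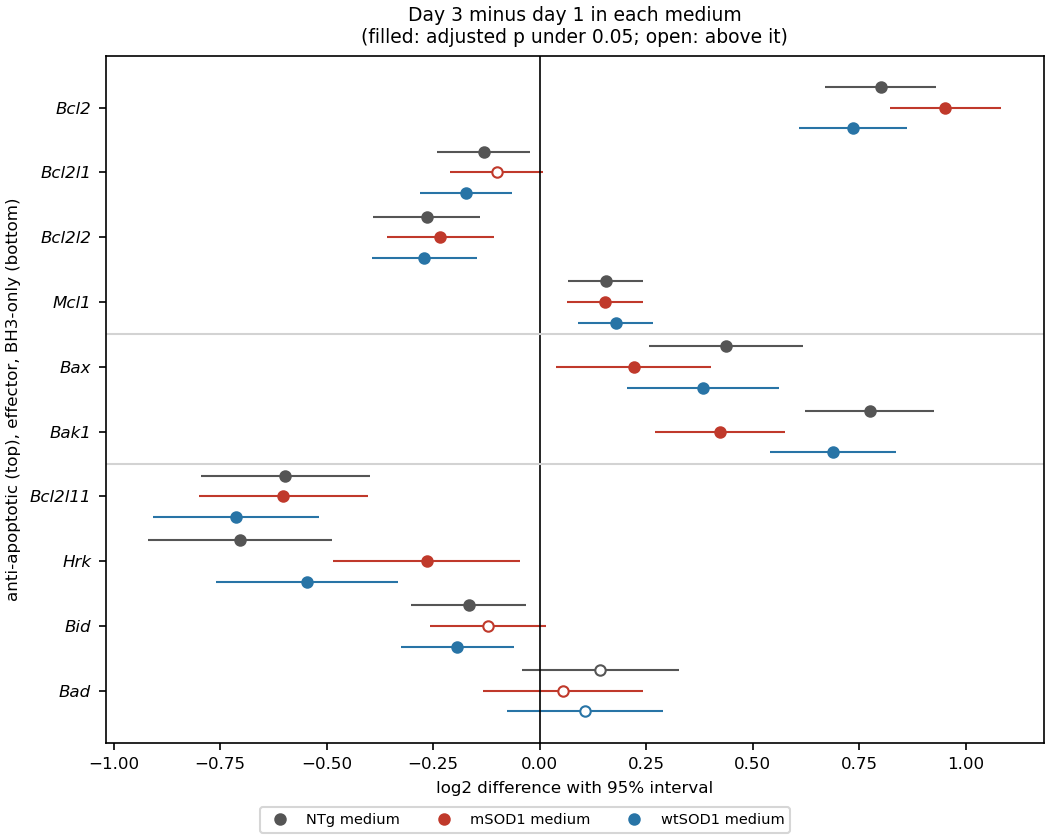
Log2 difference of day 3 against day 1 for each member with its 95% interval, in NTg (grey), mSOD1 (red) and wtSOD1 medium (blue); filled points have an adjusted p under 0.05. Bcl2 and Bak1 lie to the right, Bcl2l11 and Hrk to the left. Except for Bcl2 and Bcl2l11, the red point of every member lies nearest to 0, most clearly for Bak1, Hrk and Bax. The share of all genes with this pattern is not given here.

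Some members share bases with another gene, so part of their counts may belong elsewhere, with strand use in the counting not given in the sources used here. Bid shares 17.69% of its exon bases with Bcl2l13 on the other strand, a family member that itself fell between days (-0.19 ± 0.04 in NTg medium, adjusted p = 8.08e-05). Bad shares 20.48% with Gpr137, which stood at -0.16 ± 0.09 in NTg medium (0.124) and, unlike Bad, fell in mSOD1 medium (-0.23 ± 0.09, 0.0289). Bak1 shares bases with Ggnbp1, whose group means were at most 0.732 CPM. These shares come from a GRCm38 annotation.

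The make-up of the cultures differed between the days as well. All 7 motor neuron markers fell in each medium, and their summed level in NTg medium went from 844 to 972 CPM on day 1 to 279 to 443 CPM on day 3. All 8 pan-neuronal markers fell too, from 8660 to 9940 CPM to 4600 to 6900 CPM. Of the proliferation markers 6, 5 and 6 of 6 rose in NTg, mSOD1 and wtSOD1 medium (480 to 613 CPM, then 860 to 1240 CPM, in NTg medium). All 5 mesenchyme markers tested rose (56.4 to 116 CPM, then 189 to 252 CPM), and of the 4 progenitor markers 3 rose and 1 fell. Of the 6 astrocyte markers tested 4 rose and 1 fell, with summed levels of 111 to 177 CPM and then 338 to 507 CPM in NTg medium. Gfap had group means of at most 1.02 CPM and Gjb6 was at 0 in most libraries. Of the 6 oligodendrocyte markers tested 1 rose in each medium, and 2, 1 and 1 fell in NTg, mSOD1 and wtSOD1 medium. The 2 pluripotency markers, Pou5f1 and Nanog, had summed group medians of at most 1.18 CPM, but single libraries stood higher. On day 1 replicates 5 and 6 held 21.2 and 9.18 CPM in mSOD1 and 4.38 and 6.26 CPM in wtSOD1 medium. On day 3 NTg replicate 1 held 11.6 CPM. Of the 3 microglial markers tested 1 fell in NTg, 0 in mSOD1 and 1 in wtSOD1 medium and none rose, and summed levels on day 3 were 11.8 to 13.5 CPM in NTg medium. Most of that sum was P2ry12 (mean 11.3 CPM), while C1qa and Tyrobp were at 0 CPM in every library of that group. The part of these shifts in the members' differences was not tested, and in bulk RNA fewer cells of a type and less RNA per cell cannot be told apart.

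Did the medium change the family within a day? In edgeR without a block no member passed the threshold in any of the 6 comparisons. With the experiment number as a block, Bcl2 passed for mSOD1 against wtSOD1 on day 1 (adjusted p = 0.0167) and Bak1 for mSOD1 against NTg on day 3 (0.02), and with the block within day Bak1 passed also for mSOD1 against wtSOD1 on day 3 (0.0367). On day 1, 0.421% of all genes were called for mSOD1 against NTg medium, 0.0263% for wtSOD1 against NTg and 1.01% for mSOD1 against wtSOD1. On day 3 the shares were 2.91%, 0.0986% and 3.39%. These shares are of the fit without a block. Those with a block or with DESeq2 are not given here, so the member calls under these fits have no matching background. At an unadjusted p under 0.05 the members reached were Hrk (mSOD1 against NTg, day 1, where 6.96% of genes were), Bcl2 (mSOD1 against wtSOD1, day 1, 11.1%) and Bak1 (mSOD1 against NTg, day 3, 19.4%, and mSOD1 against wtSOD1, day 3, 18.6%). None was reached for wtSOD1 against NTg medium on day 1 (5.7% of genes) or day 3 (2.58%). DESeq2 called 1 member, Bak1, in mSOD1 against NTg medium on day 3 and none elsewhere, and limma on the deposited log2-like values called none. Comparisons with the same medium on the same day share those libraries.

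Bak1 came nearest to a call. On day 3 its libraries in mSOD1 medium, 32.1 to 43.2 CPM (median 38.8), were lower than the same-numbered NTg libraries, 42.9 to 50.4 CPM (43.8), in 6 of 6 pairs, and 5 of the 6 lay below every NTg library. The log2 difference was -0.24 ± 0.07 (edgeR adjusted p = 0.0611) and, with the experiment number as a block, -0.23 (0.02), or -0.24 (0.00579) with experiment within day as the block. DESeq2 gave an adjusted p of 0.0387. Against wtSOD1 medium, 41.8 to 48.3 CPM (43.4), the difference was -0.19 ± 0.07 (0.133, and 0.0367 with the block within day), also in 6 of 6 pairs. Bak1 in wtSOD1 medium differed from NTg by -0.05 ± 0.07 (interval -0.19 to 0.10).

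Cell type markers differed between the same groups. On day 3 the summed pan-neuronal level was 5560 to 7920 CPM in mSOD1 medium against 4600 to 6900 CPM in NTg medium, and 2 of 8 of those markers were called higher. The proliferation sum was 708 to 1050 against 860 to 1240 CPM, with 1 of 6 called lower, and the mesenchyme sum was 140 to 211 against 189 to 252 CPM, with 2 of 5 called lower. Their part in the Bak1 difference was not tested.

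Bcl2 on day 1 held 33.2 to 37.1 CPM (median 34.9) in mSOD1 medium, 36 to 46.6 CPM (41) in wtSOD1 medium and 32.8 to 40 CPM (39.8) in NTg medium. The 3 ranges overlapped. The difference of mSOD1 against wtSOD1 medium was -0.23 ± 0.06 (edgeR adjusted p = 0.0794, lower in 5 of 6 pairs), and it passed with the experiment number as a block (-0.22, 0.0167) and with the block within day (-0.22, 0.0101). It also passed without replicate 1 (-0.29, 0.0225). Without wtSOD1 day 1 replicate 4, which held the 46.6 CPM, it did not pass in the fit without a block. Against NTg medium the mSOD1 value was -0.11 ± 0.07 (0.824) and the wtSOD1 value 0.12 ± 0.06 (0.908, higher in 6 of 6 pairs).

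Hrk on day 1 differed by -0.26 ± 0.11 between mSOD1 and NTg medium (adjusted p = 0.593, lower in 5 of 6 pairs), and by -0.19 (0.742) without NTg day 1 replicate 6. On day 3 the estimate had the other sign, 0.18 ± 0.11 (0.382, higher in 6 of 6 pairs). Bax stood at -0.14 ± 0.09 on day 3 (0.374, lower in 6 of 6 pairs). Estimates of the remaining members were small. Mcl1, the best counted, differed between mSOD1 and NTg medium by 0.01 ± 0.04 on day 1 (interval -0.08 to 0.10; 0.05, adjusted p = 0.861, without NTg day 1 replicate 6) and 0.01 ± 0.04 on day 3 (interval -0.08 to 0.10). Across the 10 members and all 6 comparisons, estimates ran from -0.26 to 0.18. Bounds of 95% intervals reached from -0.48 (Hrk, day 1, mSOD1 against NTg) to 0.40 (Hrk, day 3, mSOD1 against wtSOD1).

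**Figure D4:**
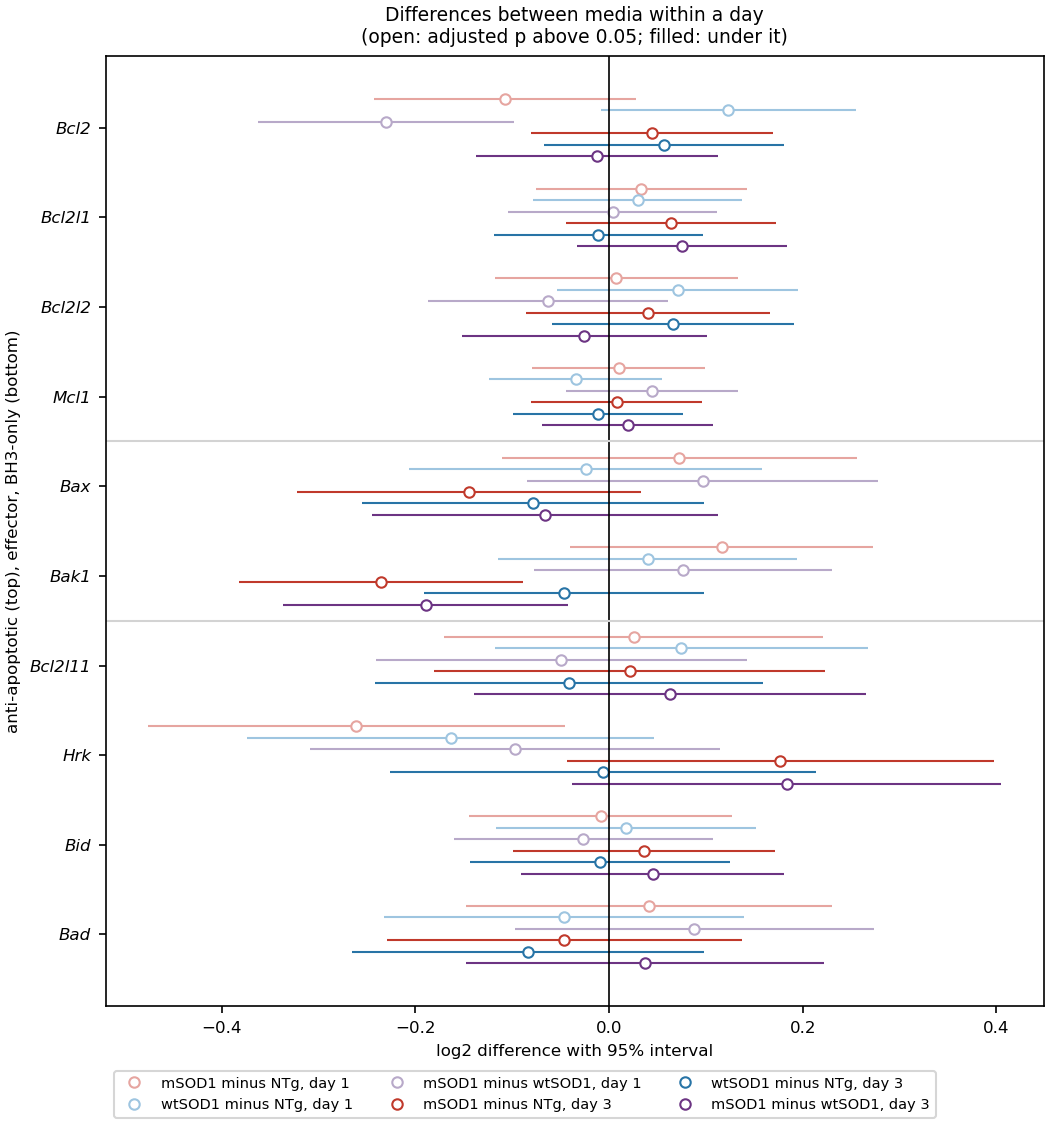
Log2 differences between media within a day for each member, with 95% intervals, pale for day 1 and dark for day 3; all points are open because no adjusted p was under 0.05 in the fit without a block. Unadjusted intervals that do not reach 0 are those of Bak1 on day 3 for mSOD1 against NTg and against wtSOD1, Bcl2 on day 1 for mSOD1 against wtSOD1 and Hrk on day 1 for mSOD1 against NTg.

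Whether the day difference itself depended on the medium was tested as an interaction. Without a block no member passed for mSOD1 against NTg (0.23% of all genes did), wtSOD1 against NTg (0.0197%) or mSOD1 against wtSOD1 (0.592%). At an unadjusted p under 0.05 stood Bak1 and Hrk in the first (14.2% of genes), none in the second (2.85%) and Bcl2 and Bak1 in the last (15.1%). DESeq2 and limma called none. For the fits with a block that follow, the share of all genes called is not given here. For mSOD1 against NTg medium the rise of Bak1 differed by -0.35 ± 0.10 (edgeR adjusted p = 0.136, in 6 of 6 experiments), with an adjusted p of 0.0461 with the block and 0.0103 with the block within day. The difference for Hrk was 0.44 ± 0.15 (0.199, in 5 of 6 experiments), with 0.0281 for the block within day, and 0.36 (0.259) without NTg day 1 replicate 6. For Bax it was -0.22 ± 0.12 (0.429). Bcl2 gave 0.15 ± 0.09 against NTg (0.441) and 0.22 ± 0.09 against wtSOD1 medium (0.23).

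The rest of the apoptosis machinery was read in 6 lists of 66 entries, chosen from general knowledge but with earlier results of these data known. The counts between days in all 6 lists are read against the shares of all genes tested. Of those, 30.8%, 28.4% and 31.1% rose in NTg, mSOD1 and wtSOD1 medium, and 30.8%, 28% and 30.7% fell. Whether any list differed from these shares was not tested. Among 11 tested of 16 other family genes, 2 rose and 2 fell between days in NTg medium, 3 and 2 in mSOD1, and 3 and 3 in wtSOD1 medium. The list's median log2 difference was 0.02, -0.03 and -0.19. Bmf, a BH3-only gene, went from 7.34 to 10.6 CPM on day 1 to 3.6 to 4.63 CPM on day 3 in NTg medium (-1.08 ± 0.13, adjusted p = 5.77e-09) and also fell in mSOD1 (-0.86) and wtSOD1 medium (-1.29). Pmaip1 (NOXA), a BH3-only gene that binds MCL1, rose from 4.2 to 7.31 CPM to 9.4 to 14.3 CPM (1.05 ± 0.16, 3.83e-07) and in the other media by 0.92 and 1.13. Bcl2l12 rose by 0.83 ± 0.12 (6.95e-08). Bcl2a1c, close to its paralogs and at most 0.859 CPM in NTg medium, was called in mSOD1 medium (1.59 ± 0.49, 0.00551). Bbc3 (PUMA), chosen after its values were seen, stood at 0.22 ± 0.12 in NTg medium (0.112) and passed in wtSOD1 medium (0.26 ± 0.12, 0.0487). BH3-only genes therefore moved both ways.

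Of the 8 caspase and apoptosome genes, 5 rose and 2 fell in NTg medium, 4 and 2 in mSOD1, and 5 and 2 in wtSOD1 medium, with medians of 0.27, 0.18 and 0.33. Casp8, the initiator of the death receptor route that cuts BID, rose from 0.646 to 2.05 CPM to 3.34 to 6.29 CPM in NTg medium (1.85 ± 0.23, adjusted p = 4.56e-09). Casp9, the initiator downstream of the mitochondria, fell from 49.7 to 61.3 CPM to 35.3 to 40.8 CPM (-0.57 ± 0.06, 2.61e-11). Casp6, an executioner, rose by 0.48 ± 0.09 (3.12e-05). Chosen after their values were seen, Apaf1, the scaffold that cytochrome c turns into the apoptosome, rose by 0.38 ± 0.05 (1.65e-08), and cytochrome c itself (Cycs) stood at 0.01 ± 0.06 (0.946).

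Of 8 inhibitors of apoptosis and their antagonists tested (11 listed), 2 rose in each medium and 1 fell in mSOD1 medium alone, with medians of 0.06, 0.02 and 0.04. Birc5 (survivin), also a mitosis gene, rose by 0.97 ± 0.11 in NTg medium (adjusted p = 5.74e-10), and Xiap, which blocks caspases directly, by 0.24 ± 0.05 (0.000135). Htra2, an antagonist, stood at 0.08 ± 0.08 (0.428). Birc3 (cIAP2), an NF-kB target, was called between media on day 1. It held 2.8 to 6.05 CPM in mSOD1 medium against 0.909 to 3.54 in NTg and 0.974 to 2.13 in wtSOD1 medium, a log2 difference of 1.17 ± 0.24 (0.0077) and 1.36 ± 0.24 (0.000607).

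Of 5 genes of the outer membrane and of release, 1 rose and 1 fell in NTg medium, 1 and 2 in mSOD1, and 1 and none in wtSOD1 medium, with medians of -0.04, -0.11 and -0.05. Aifm1, a mitochondrial flavoprotein released in cell death, rose by 0.45 ± 0.06 in NTg medium (adjusted p = 1.41e-08), and Endog, a mitochondrial nuclease, fell by 0.28 (SE 0.10, 0.0131). The channels Vdac1 and Vdac3 stood at -0.05 ± 0.05 (0.337) and -0.04 ± 0.04 (0.346).

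Upstream, 3 of 14 tested regulators (16 listed) rose and 8 fell in NTg medium, 3 and 6 in mSOD1, and 3 and 8 in wtSOD1 medium, with medians of -0.21, -0.07 and -0.15. Foxo1, of the FOXO factors known to induce BIM, rose in NTg medium. It went from 9.16 to 13.5 CPM to 19.6 to 24.3 CPM (0.92 ± 0.09, edgeR adjusted p = 3.69e-11). Mapk8 (JNK1), of the JNK kinases known to act upstream of BIM and HRK in neurons, fell from 196 to 233 CPM to 110 to 142 CPM (-0.76 ± 0.05, 4.57e-16). Any part of Foxo1 or Mapk8 in the levels of Bcl2l11 or Hrk was not tested, and the activity of their proteins was not measured. Mapk10 (JNK3), the neuronal JNK, fell by 0.30 in NTg medium (SE 0.06, 1.33e-05), and on day 1 was lower in mSOD1 than in wtSOD1 medium (-0.23 ± 0.06, 0.0264, in 6 of 6 pairs). Map2k4, a kinase that activates JNK, was higher on day 3 in mSOD1 medium, at 215 to 232 CPM against 186 to 212 CPM in NTg medium (0.18 ± 0.04, 0.0108, in 6 of 6 pairs) and 189 to 210 CPM in wtSOD1 medium (0.18 ± 0.04, 0.00514). Trp53, which encodes p53, an activator of Bax, Pmaip1 and Bbc3, was chosen after its values were seen and rose by 0.32 ± 0.05 in NTg medium (3.67e-06), with 0.08 ± 0.05 in mSOD1 medium (0.225).

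Of 10 partners and turnover genes 3 rose and 4 fell in NTg medium, 4 and 2 in mSOD1, and 3 and 3 in wtSOD1 medium, with medians of -0.02, -0.0022 and -0.04. Bag3, a co-chaperone that binds BCL2, rose from 8.49 to 12.8 CPM to 20.1 to 25 CPM in NTg medium (0.99 ± 0.09, adjusted p = 3.4e-12). Bcap31, an endoplasmic reticulum protein that binds BCL2, rose by 0.49 ± 0.06 (6.27e-10), and Tmbim6 (BAX inhibitor 1) by 0.44 ± 0.05 (7.6e-11). Fbxw7, a ubiquitin ligase subunit that marks MCL1 for degradation, fell by 0.20 between days in NTg medium (SE 0.05, 0.000509). On day 3 it was higher in mSOD1 medium, at 71.7 to 82.7 CPM, than in NTg (64.1 to 75.2 CPM, 0.17 ± 0.05, 0.0459) and wtSOD1 medium (59.5 to 70.4 CPM, 0.23 ± 0.05, 0.0031), in 6 of 6 pairs each.

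**Figure D5:**
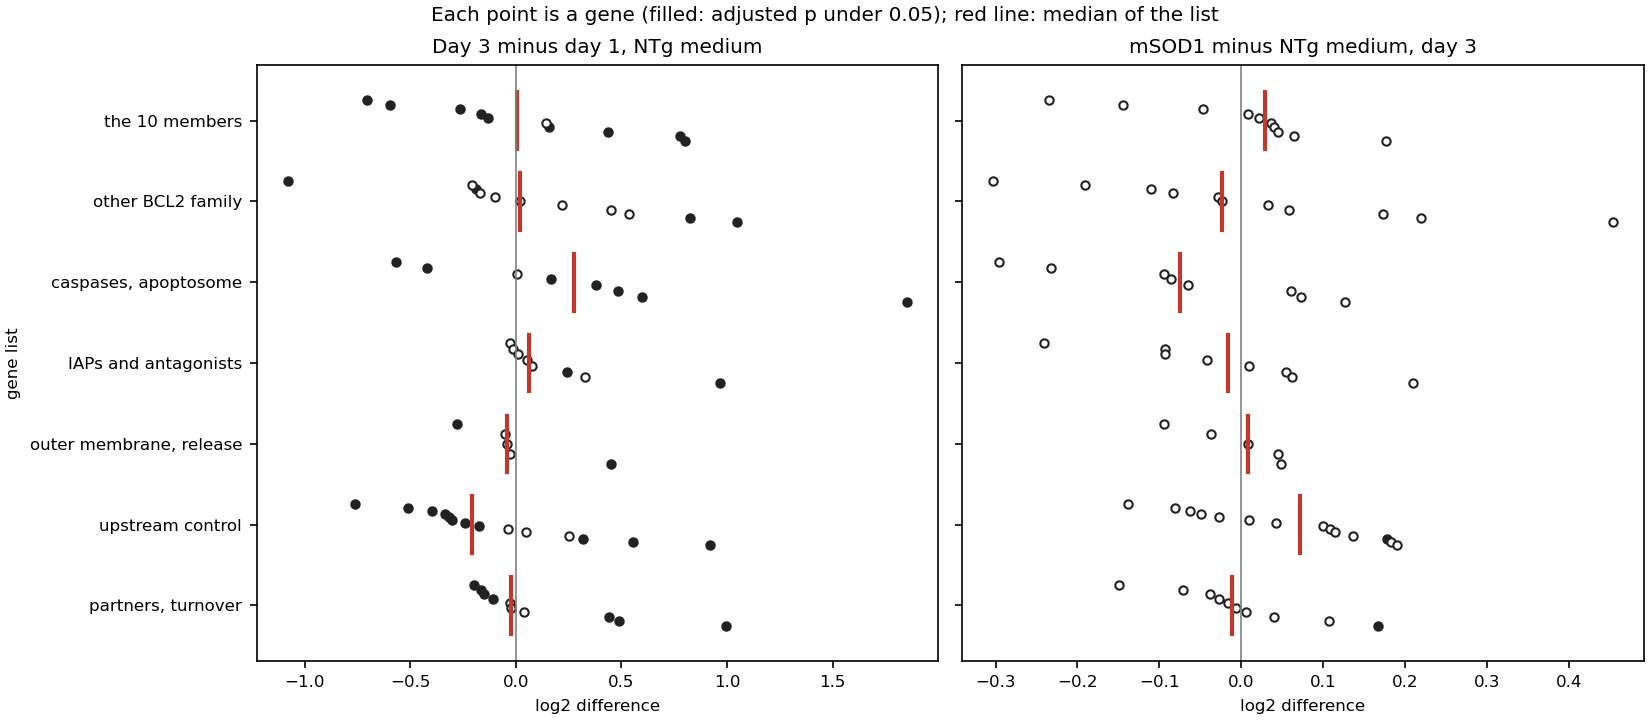
Log2 differences of the 10 members and of the genes tested in 6 apoptosis lists, for day 3 against day 1 in NTg medium (left) and mSOD1 against NTg medium on day 3 (right); each point is a gene, filled where the adjusted p is under 0.05, and the red line is the list's median. On the left filled points lie on both sides of 0 in every list but the inhibitors of apoptosis, and on the right Map2k4 and Fbxw7 alone are filled. Of all genes tested, 61.6% were called in the comparison on the left and 2.91% in that on the right.

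The genes whose levels followed each member most closely over the 36 libraries were found by Pearson's r of log2 CPM, as a description. Differences between days enter these values, and their part was not separated from the spread within groups. For Bcl2 they were Shroom2 (0.981) and Mbnl2 (0.974), and for Bak1 Gnai2 (0.971) and Tubb6 (0.963). For Bax they were 4930412F15Rik (0.936) and Fam126a (0.932), and for Bcl2l11 Mtus1 (0.924) and Stk32a (0.922). Bcl2l2 was followed by Entpd6 (0.914) and Nelf (0.898), and Mcl1 by Ppp1cb (0.895) and Dstn (0.882). The values were lower for Bcl2l1 (Sepw1 0.856, Ap2m1 0.853), Hrk (Calm2 0.857, Rtf1 0.857), Bid (Nek3 0.816, Lcmt1 0.79) and Bad (Krtcap2 0.744, Tomm6 0.733). No member was among the closest genes of another member.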

How the data were processed

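RNA of 36 libraries was sequenced with standard Illumina protocols, per the labels' protocols. The authors deposited whole-number read counts per gene and a second column of transformed values on a log2-like scale, per the file headers. TopHat 1.3.3, DESeq and the build mm9 are listed in the submitters' processing notes, with the counter, annotation and strandedness not given in the sources used here. Of the genes listed, 7 had no symbol.

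Counts were tested with edgeR 4.0.16 (R 4.3.3): TMM scaling, filterByExpr by group, robust quasi-likelihood fits of 6 group means over all 36 libraries, 30 residual degrees of freedom, no block. The 12 comparisons (6 between media within a day, 3 between days, 3 interactions) used Benjamini-Hochberg adjustment over 15207 genes, with a threshold of 0.05 and 95% intervals. CPM use TMM-scaled totals, and logarithms of CPM a prior count of 2. Alternatives were DESeq2 1.42.0, limma 3.58.1 on the log2-like column, other scaling and filtering, subsets of libraries and experiment as a block. Scripts were tested on simulated data. Any 2 replicates of a group had equal counts at no more than 1.62% of genes above a low floor of summed reads. None was thus a copy of another library of its group, and libraries of different groups were not compared in this way.

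The labels' experiment numbers were read as shared experiments. Deviations of same-numbered libraries correlated at 0.132 on day 1 and 0.24 on day 3, against -0.026 and -0.048 where numbers differed. Across days the same-numbered value was 0.037.

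Lengths and overlaps came from a GRCm38 annotation by gene identifier, promoters from RefSeq. Members and lists were chosen with earlier results of these data known. Named by rule were all members and up to 4 genes per list, those called between media or with the largest day difference in NTg medium, and 2 genes most correlated with each member; a few genes so selected are left out here.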

Additional observations from a re-analysis of the deposited data

Results flagged for a closer look

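In 3 of 60 sets of 6 libraries (10 members in 6 groups) the highest or lowest library stood far from the other 5, by Dixon's 95% criterion, which chance meets in about 1 of 20 sets. Bcl2 was at 80.3 CPM in mSOD1 medium on day 3, replicate 3, with the next highest at 69.2 CPM. Bcl2l1 was at 103 CPM in wtSOD1 medium on day 1, replicate 4, the deepest library, with the next lowest at 117 CPM. Mcl1 was at 218 CPM in NTg medium on day 1, replicate 6, the shallowest library and the one with high microglial and oligodendrocyte markers, with the next highest at 187 CPM.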

How the results depend on the processing

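No member changed direction past a threshold under any setting tried. Between media the count of members called went from 0 to 1 for mSOD1 against wtSOD1 on day 1 (Bcl2; replicate block, block within day, and without replicate 1). It went from 0 to 1 for mSOD1 against NTg on day 3 (Bak1; DESeq2, replicate block, block within day, only the groups compared, adjusted p = 0.0399, without wtSOD1 day 1 replicate 4, 0.0429, and without that library and NTg day 1 replicate 6, 0.0415). It went from 0 to 1 for mSOD1 against wtSOD1 on day 3 (Bak1, block within day), and for the interaction of mSOD1 against NTg to 1 with the replicate block (Bak1) and 2 with the block within day (Bak1 and Hrk). The replicate block changed no other call, and the cause of these changes was not tested. The share of all genes called under these settings is not given here. Leaving out 1 experiment at a time gave 7 to 9 members called between days in NTg, 5 to 7 in mSOD1 and 8 to 9 in wtSOD1 medium, 0 to 1 for mSOD1 against wtSOD1 on day 1, and 0 in the other comparisons. With only the groups compared, Bcl2l1 in NTg (adjusted p = 0.0826) and Bid in wtSOD1 medium (0.0536) lost their day calls, and with limma on the log2-like column Bcl2l1 in NTg did (0.0627). RLE factors and no low-count filter changed no call of a member. The lowest count of a member in a library was 59 reads, so no member's value rests on a count near 0. With the longest transcript, 4 to 10 of 10 members kept their place in the order per kilobase.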
